A study of Mus musculus with 2 samples.

Results

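The mature microRNAs (miRNAs) of the miR-99/100 and miR-125 loci were described in exosomes of mouse macrophages. They were taken by name, 8 of the 1976 mature miRNAs listed in each of 2 small RNA libraries: mmu-miR-99b-5p, mmu-miR-99b-3p, mmu-miR-125a-5p and mmu-miR-125a-3p from a locus on chromosome 17, and mmu-miR-99a-5p, mmu-miR-99a-3p, mmu-miR-100-5p and mmu-miR-125b-5p from related loci on chromosomes 16 and 9. All 8 were listed in both libraries, and the prefix for mouse is left out below. Exosomes are small vesicles that cells release into their medium. The cells were primary macrophages grown from bone marrow of C57BL/6 mice aged 5 to 6 weeks, cultured for 7 days with 10 ng/mL of the growth factor M-CSF. For polarisation they received IFN-γ (M1 state) or IL-4 (M2 state), each at 20 ng/mL for 1 day. Both groups spent a further 2 days in serum-free medium, from which the exosomes were spun down by ultracentrifugation. Each group holds 1 library, and the labels do not say how many animals or cultures it came from. No value therefore has a replicate error, no test of the conditions was possible, and each difference below compares 2 libraries and not the 2 conditions.

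A miRNA gene is transcribed as a hairpin, and either side of that hairpin (the 5p or the 3p arm) can be loaded into an Argonaute protein as the mature strand. The strand then pairs with messenger RNAs through its seed, bases 2 to 8, and lowers their output, so miRNAs with the same seed share most of their predicted targets. The miR-99/100 and miR-125 families are old neighbours. In mammals they lie with a let-7 gene in copies of an ancestral cluster, and the copies are transcribed independently of each other. miR-99 and miR-100 are known to repress Mtor, a kinase that couples nutrients to growth. miR-125a and miR-125b act in haematopoietic stem cells and macrophages, where reported targets include the NF-κB inhibitor Tnfaip3. The chromosome 17 cluster of miR-99b, let-7e and miR-125a is known to be induced in macrophages by Toll-like receptor ligands.

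The mature sequences of the 8 members are shown because the results turn on paralogues that share a seed and differ little elsewhere. They are RefSeq sequences for GRCm38.p6, printed 5′ to 3′ with the seed in capitals, and all 8 members matched an entry.
miR-99b-5p: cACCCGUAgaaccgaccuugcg
miR-99a-5p: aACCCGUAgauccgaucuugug
miR-100-5p: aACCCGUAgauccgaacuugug
miR-125a-5p: uCCCUGAGacccuuuaaccuguga
miR-125b-5p: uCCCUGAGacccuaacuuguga
miR-99b-3p: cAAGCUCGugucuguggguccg
miR-99a-3p: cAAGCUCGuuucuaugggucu
miR-125a-3p: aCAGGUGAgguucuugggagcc
The 3 guide strands of the miR-99/100 family have the seed ACCCGUA, and no other listed miRNA with a sequence in the table has it. Counted from the 5′ end, miR-99a-5p and miR-100-5p differ by the substitution U16A alone. miR-99a-5p and miR-99b-5p differ by 4 substitutions, A1C, U11A, U16C and U21C, all outside the seed. miR-125a-5p and miR-125b-5p share the seed CCCUGAG and their first 13 bases and differ in length, at 24 and 22 bases. The passenger strands miR-99a-3p and miR-99b-3p share the seed AAGCUCG. How reads that match close paralogues were assigned is not given in the sources used here, so the split between miR-99a-5p and miR-100-5p is the least certain.

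The loci differ greatly in how tightly they are packed. All positions are those of mature arms on the plus strand of GRCm38, the assembly called mm10. On chromosome 17, miR-99b-5p lies at chr17:17830194-17830215, miR-99b-3p at chr17:17830232-17830253, miR-125a-5p at chr17:17830817-17830840 and miR-125a-3p at chr17:17830855-17830876, with let-7e between the hairpins. The whole cluster spans 683 bases. GENCODE M21 places miR-99b and let-7e in an intron of Spaca6, a gene named for the sperm acrosome, and miR-125a in an exon of a non-coding transcript of that gene. On chromosome 16, miR-99a-5p lies at chr16:77598940-77598961 and the miR-125b-2 copy of miR-125b-5p at chr16:77646279-77646300. These lie 47339 bases apart in introns of the long non-coding host gene Mir99ahg. miR-99a also lies in an intron of the opposite-strand protein-coding gene Gm11146. On chromosome 9, miR-100-5p lies at chr9:41531437-41531458 and the miR-125b-1 copy of miR-125b-5p at chr9:41581940-41581961. They lie in introns of the non-coding genes 3110039I08Rik and Gm49317. miR-100 also overlaps an exon of the opposite-strand Gm48742, and miR-125b-1 an exon of the same-strand Gm28119. Both copies of miR-125b give the same 5p strand, so its level is a sum over chromosomes 16 and 9.

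The deposited values are on a log2(level + 1) scale, and a level below is 2 to the power of the value, minus 1, in the authors' units. The sum of all levels was 686353 units for the M1 library and 734637 for the M2 library, and the number of reads is unknown. At low levels the values fell on even steps, taken as 1 read, of 0.803 units in the M1 library and 1.23 units in the M2 library. A miRNA was compared if it reached 10 units in at least 1 library, and counted as different at a log2 ratio (M1 minus M2) of at least 1 in size, which is 2-fold. This left 337 miRNAs with a median log2 ratio of 0.04 and a standard deviation over miRNAs of 1.59. All 7 macrophage and myeloid markers were above 0 in both libraries. They held 21.5% of the summed level in M1 and 13.4% in M2, of which miR-146a-5p was the larger part. Without it they held 3.91% and 6.53%, and 4 of the 7 had a ratio below 0, with a median of -0.69.

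Of the 8 members 7 were compared, and the calls in each direction came from different loci. In all, 3 of the 7 were at least 2-fold higher in the M1 library, against 26.1% of all miRNAs compared, and 2 were at least 2-fold higher in the M2 library, against 22.8%. The remaining 2, miR-125a-5p of chromosome 17 at -0.20 and miR-100-5p of chromosome 9 at -0.22, lay within 2-fold. The members higher in the M1 library were 3 of the 4 from chromosome 17. These 4 are the paired arms of miR-99b and miR-125a, and both arms of miR-99b are among the 3, so they are not separate observations. The members higher in the M2 library were 2 of the 3 compared from the other loci. Of these 2, miR-99a-5p lay on the 2-fold line at -1.005, and its call did not hold under every scaling. With 49.0% of all miRNAs compared lying outside 2-fold in these libraries, a member past that line is not unusual, and the counts over so few members are a description.

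**Figure D1:**
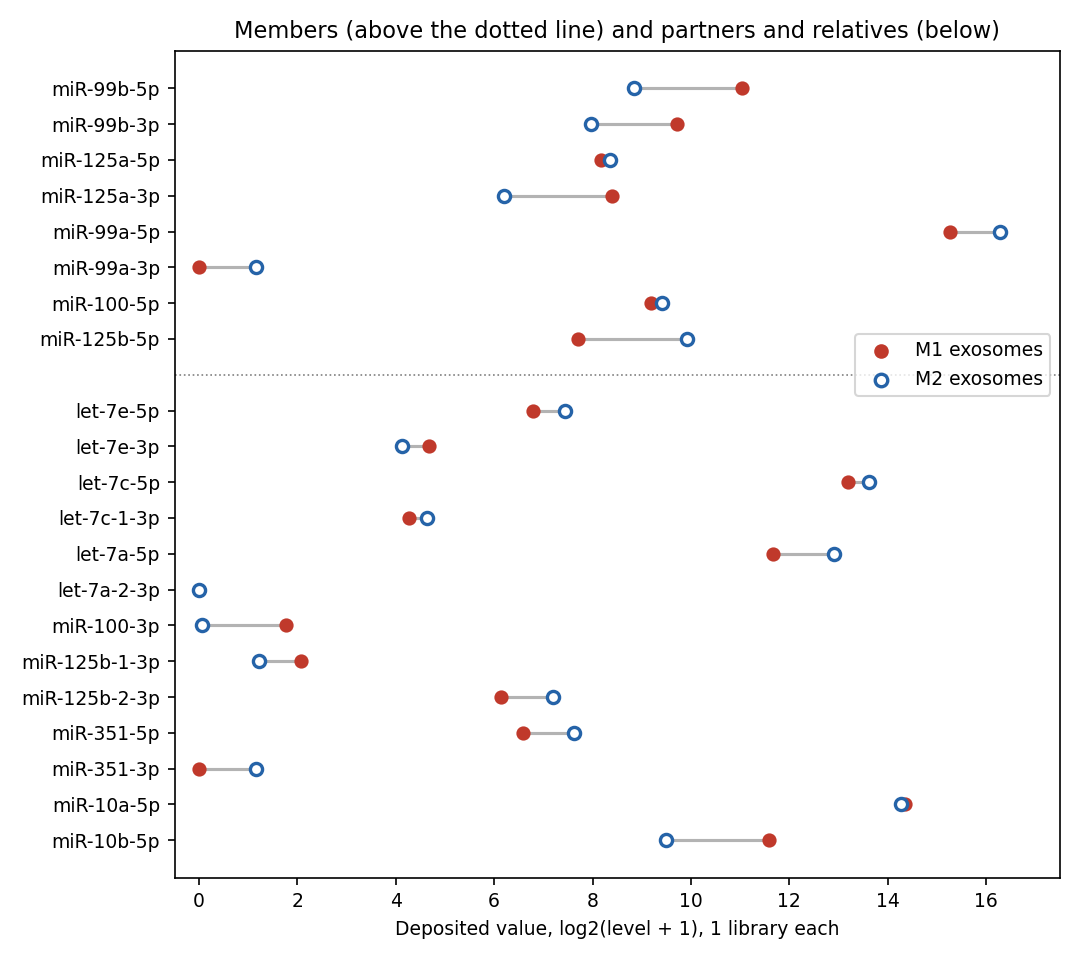
Deposited log2(level + 1) values (x axis) of the 8 members above the dotted line and of 13 cluster partners and relatives below it, 1 point per library, filled for the M1 library and open for the M2 library. miR-99a-5p stands far to the right at 15.28 and 16.28, miR-125a-3p and both arms of miR-99b have the filled point to the right, and miR-125b-5p has the open point to the right.

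miR-99a-5p, the guide strand of the chromosome 16 hairpin, was by far the most abundant member. Its value was 15.28 in the M1 library and 16.28 in the M2 library, which made it the miRNA of rank 5 and rank 2 in the libraries. It held 5.78% of the summed level in the M1 library and 10.8% in the M2 library. The log2 ratio of -1.005 lay on the 2-fold line, at 2.01-fold higher in the M2 library, and was -0.91 when each library was divided by its sum and -0.98 when it was divided by its sum without the members, so the call does not hold under those scalings. Because of this miRNA the 8 members together held 6.42% of the summed level for M1 and 11.2% for M2. Without it the order was the opposite, with 0.634% for M1 and 0.376% for M2 over the other 7.

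miR-99b-5p, the guide strand of the chromosome 17 paralogue, ran the other way. It had a value of 11.04 in the M1 library and 8.85 in the M2 library, or rank 39 and rank 82. The log2 ratio was 2.19, or 4.57-fold higher in the M1 library, and 28 of the 337 miRNAs compared had a ratio at least as high, itself included. Its ratio exceeded that of miR-99a-5p by 3.20 on the log2 scale and that of miR-100-5p by 2.41.

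miR-100-5p, from chromosome 9, lay within 2-fold. Its value was 9.20 in the M1 library and 9.42 in the M2 library, with a log2 ratio of -0.22. The order of the paralogues therefore differed between the libraries: the level of miR-99b-5p was 3.59 times that of miR-100-5p in the M1 library, while that of miR-100-5p was 1.49 times that of miR-99b-5p in the M2 library. The level of miR-100-5p amounted to 1.47% of that of miR-99a-5p in the M1 library and 0.856% in the M2 library. The 2 sequences differ at 1 base, and the share of miR-99a-5p reads counted as miR-100-5p is not known. The part of such reads in the value was not tested.

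Counted by seed, the miR-99/100 group was almost entirely miR-99a-5p. That strand made up 93.7% of the summed level of the 3 guide strands in the M1 library and 98.6% in the M2 library. miR-99b-5p made up 4.95% and 0.568%, and miR-100-5p 1.38% and 0.844%. The seed group as a whole held 6.18% in M1 and 11.0% in M2, so the larger relative difference of miR-99b-5p barely entered the sum.

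The miR-125 guide strands were much less abundant, and their order also differed. miR-125a-5p, from chromosome 17, had a value of 8.16 in the M1 library and 8.36 in the M2 library, with a log2 ratio of -0.20. miR-125b-5p, from chromosomes 16 and 9, had 7.70 and 9.93, or rank 120 and rank 54. Its log2 ratio of -2.23 corresponds to 4.68-fold higher in the M2 library, and 24 of the 337 miRNAs compared had a ratio at least as low, itself included. In the M1 library miR-125a-5p was 1.38 times as high as miR-125b-5p, whereas in the M2 library miR-125b-5p was 2.96 times as high as miR-125a-5p. The difference between the 2 log2 ratios was 2.03.

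Another miRNA with the miR-125 seed was present. miR-351-5p, from the X chromosome, had a value of 6.58 in the M1 library and 7.63 in the M2 library, with a log2 ratio of -1.04 that was -0.95 with each library divided by its sum. The other listed miRNAs with this seed, miR-6367 and miR-6394, were listed at 0 in both libraries. Of the summed level of the 3 detected strands, miR-125a-5p held 48.7% in the M1 library and 21.9% in the M2 library, miR-125b-5p 35.2% and 64.9%, and miR-351-5p 16.2% and 13.2%. With miR-351-5p the seed group came to 0.0856% of the summed level in M1 and 0.204% in M2. The other arm of that hairpin, miR-351-3p, was listed at 0 in the M1 library and at 1.15 in the M2 library and was not compared.

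**Figure D2:**
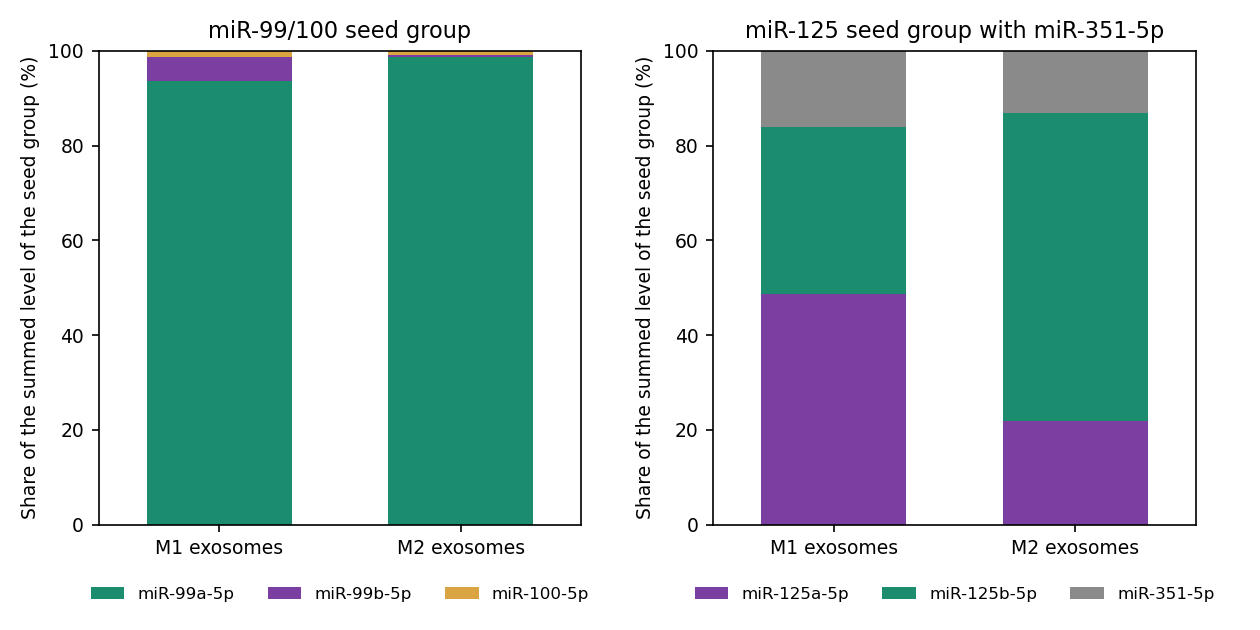
Share (y axis, percent) of the summed linear level of each seed group held by its guide strands in the M1 and the M2 library, 1 bar per library. miR-99a-5p fills 93.7% and 98.6% of the left pair of bars, and in the right pair miR-125b-5p holds 35.2% in the M1 library and 64.9% in the M2 library.

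The passenger arms separated the hairpins further. miR-99b-3p, the passenger strand of miR-99b, had a value of 9.71 in the M1 library and 7.97 in the M2 library. Its log2 ratio of 1.74 corresponds to 3.34-fold higher in the M1 library, so both arms of miR-99b were higher there. The 5p arm stood 1.32 above the 3p arm on the log2 scale in the M1 library and 0.87 in the M2 library, and the 3p arm held 28.5% and 35.3% of the level of the hairpin. The passenger strand of the paralogue was nearly missing. miR-99a-3p was listed at 0 in the M1 library, which allows up to 3 reads or 2.41 units, and at 1.15 in the M2 library, which is 1 read, so it was not compared. In the M1 library miR-99a-5p was thus at least 16479-fold higher than its own passenger strand, taken at the level of 3 reads. The hairpin of miR-99a is shown with both arms in capitals, to set the abundant 5p side beside the near-absent 3p side (chr16:77598936-77599000, plus strand, RefSeq, GRCm38.p6).
Mir99a: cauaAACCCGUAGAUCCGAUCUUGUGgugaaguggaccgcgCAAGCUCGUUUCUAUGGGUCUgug

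The arms of miR-125a had different ratios. miR-125a-3p had a value of 8.39 in the M1 library and 6.19 in the M2 library. Its log2 ratio of 2.20 corresponds to 4.58-fold higher in the M1 library, close to that of miR-99b-5p, while miR-125a-5p from the same hairpin had -0.20. In the M1 library the 3p arm was slightly the higher, at 53.9% of the level of the hairpin, and in the M2 library it held 18.0%. The 5p arm minus the 3p arm was therefore -0.22 on the log2 scale in the M1 library and 2.17 in the M2 library, a change of -2.40. Among the 68 hairpins with both arms compared, the change had a median of -0.42 and a standard deviation of 1.51. It was at least 2-fold in 27 of them, and 10, miR-125a included, had a change at least as large in size as that of miR-125a. The arm with the higher value differed between the libraries in 4, which were miR-125a, let-7d, miR-142a and miR-669a. Both arms were at least 2-fold higher in the M1 library in 13 of the 68 hairpins, miR-99b among them.

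**Figure D3:**
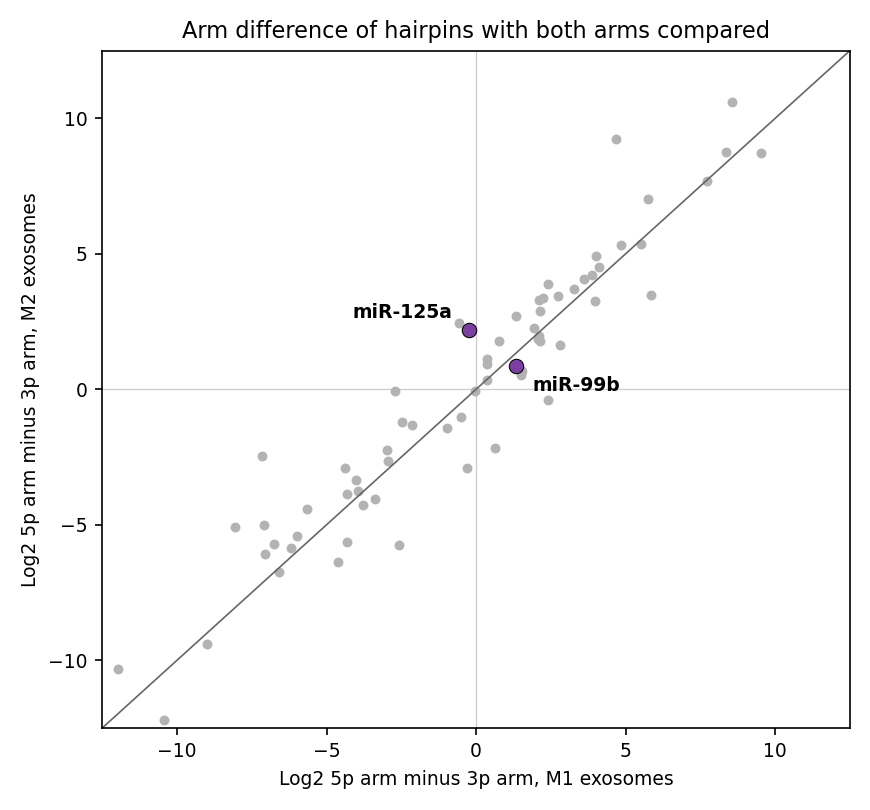
Log2 value of the 5p arm minus that of the 3p arm in the M1 library (x axis) and in the M2 library (y axis) for the 68 hairpins with both arms compared, 1 point per hairpin, with the line of equal difference. miR-99b lies near the line at 1.32 and 0.87, and miR-125a lies off it at -0.22 and 2.17.

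The chromosome 17 locus was set against the other loci as a whole and by paralogue. Its 4 members had a median log2 ratio of 1.97, with a range from -0.20 to 2.20. The 3 compared members of the other loci had a median of -1.005, with a range from -2.23 to -0.22. The ranges of these members did not overlap. However, the lowest chromosome 17 ratio, -0.20 for miR-125a-5p, stood next to the highest of the other loci, -0.22 for miR-100-5p. let-7e-5p of the same cluster, which is not a member, had -0.65, inside the range of the other loci. The chromosome 17 side also holds the 3p arms miR-99b-3p and miR-125a-3p, while the compared members of the other loci are 5p arms only. In linear levels the chromosome 17 members held 0.518% of the sum in M1 and 0.151% in M2, and the members of the other loci 5.90% and 11.1%. Nearly all of the latter was miR-99a-5p, and without it the members of the other loci held 0.115% and 0.225%. In each of the 3 compared paralogue pairs the chromosome 17 member had the higher ratio, by 3.20 for miR-99b-5p over miR-99a-5p, 2.41 for miR-99b-5p over miR-100-5p and 2.03 for miR-125a-5p over miR-125b-5p. The first 2 of these pairs share miR-99b-5p and are not independent. Ratios of single miRNAs had a standard deviation of 1.59 over the 337 compared, and no background was computed for differences between pairs.

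**Figure D4:**
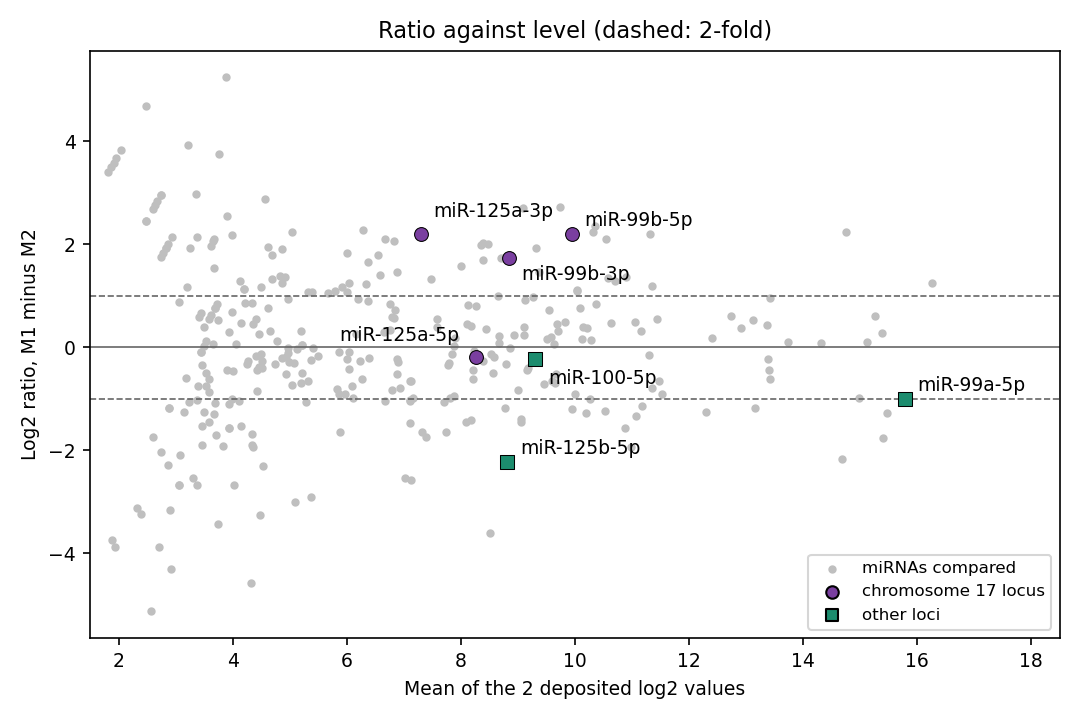
Log2 ratio, M1 minus M2 (y axis), against the mean of the 2 deposited log2 values (x axis) for the 337 miRNAs compared in grey, with the 7 compared members as circles (chromosome 17) and squares (other loci) and the 2-fold lines dashed. The circles of miR-99b-5p, miR-125a-3p and miR-99b-3p lie above the upper dashed line, miR-125b-5p lies below the lower one, and miR-99a-5p lies on it at the far right.

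Of the 6 lists of markers of other cell types, 5 had a higher summed level in the M1 library. All 4 compared of 5 erythroid miRNAs were at least 2-fold higher there, against 26.1% of all miRNAs compared. The 5 together made up 1.16% of the level in M1 and 0.204% in M2. miR-486a-5p and miR-486b-5p on this list had nearly the same values, at 11.53 and 11.43 in the M1 library and 9.17 and 9.20 in the M2 library. They may not be separate signals, which was not tested. Of 8 stromal or fibroblast miRNAs, 4 of the 7 compared were at least 2-fold higher in the M1 library, against the same 26.1%. The 8 had a summed level of 0.729% in M1 and 0.242% in M2. Of these sums miR-10b-5p made up 61.6% and 40.5%, and 7 of the 8 had a ratio above 0. The 4 liver miRNAs held 8.78% and 1.78%, nearly all of it miR-122-5p. The 2 endothelial miRNAs held 0.140% and 0.0801%. The 5 neuronal ones held 0.0686% and 0.208%, an order set by miR-9-5p with a ratio of -3.61, while the other 3 detected had ratios above 0. The 7 epithelial ones held 0.0361% and 0.0243%, although 4 of them had a ratio below 0 and the median was -0.46. Among these lists miR-124-3p, a neuronal miRNA, was the only marker at 0 in both libraries. The erythroid, stromal, liver and endothelial sums were higher in the same library as miR-125a-3p and both arms of miR-99b, and their part in the ratios of the members was not tested.

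The members higher in the M1 library were the 3 richest in GC. The GC content of the members higher in the M1 library was 63.6% for miR-99b-5p, 63.6% for miR-99b-3p and 59.1% for miR-125a-3p. It was 50.0% for miR-99a-5p, miR-100-5p, miR-125a-5p and miR-125b-5p and 47.6% for miR-99a-3p, and the median of the 293 compared miRNAs with a sequence was 47.6%. Of the 53 compared miRNAs with at least the GC content of miR-125a-3p, these 3 included, 22 (41.5%) were 2-fold or more higher in the M1 library, with a median log2 ratio of 0.66. Of the 240 with less GC it was 53 (22.1%), with a median of -0.05. In the M2 library 10 of the 53 richer in GC and 58 of the 240 were 2-fold or more higher. The limit was the lowest GC content of these 3 members, so their place above it was fixed in advance. The part of GC content in the ratios of the members was not tested.

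The let-7 partners in the same clusters did not follow the chromosome 17 members. let-7e-5p, the guide strand of the hairpin between miR-99b and miR-125a, had a value of 6.78 in the M1 library and 7.43 in the M2 library, with a log2 ratio of -0.65. Its passenger strand let-7e-3p had 4.67 and 4.13, with a ratio of 0.55. Along the 683 bases of the cluster the ratios of the 6 arms were therefore 2.19, 1.74, -0.65, 0.55, -0.20 and 2.20 in order of position, and 3 arms past 2-fold stood beside 3 within it. On chromosome 16, next to miR-99a, let-7c-5p had 13.19 and 13.62, with a ratio of -0.44, and let-7c-1-3p, the arm that only this copy makes, had -0.38. On chromosome 9 the guide let-7a-5p, which other loci also make, was 2.38-fold higher in the M2 library, and the locus-specific let-7a-2-3p was listed at 0 in both.

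The passenger strands of miR-125b tell its copies apart. miR-125b-2-3p, which comes from chromosome 16 alone, had a value of 6.14 in the M1 library and 7.19 in the M2 library, or 69.6 and 145 units. Its log2 ratio of -1.05, which was -0.95 after division of each library by its sum, had the sign of that of miR-125b-5p. miR-125b-1-3p, from chromosome 9, stood at 3.19 and 1.33 units, about 4 reads and 1 read. miR-100-3p, also from chromosome 9, stood at 1.77 in the M1 library, about 3 reads, and at 0.06 in the M2 library, below the worth of 1 read. Of the passenger strands made by the chromosome 16 locus or the chromosome 9 locus alone, miR-125b-2-3p and let-7c-1-3p of chromosome 16 reached the minimum, while miR-99a-3p and those of chromosome 9 did not. Arms are kept at different rates, so these levels do not divide the miR-125b-5p strand between its copies.

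**Figure D5:**
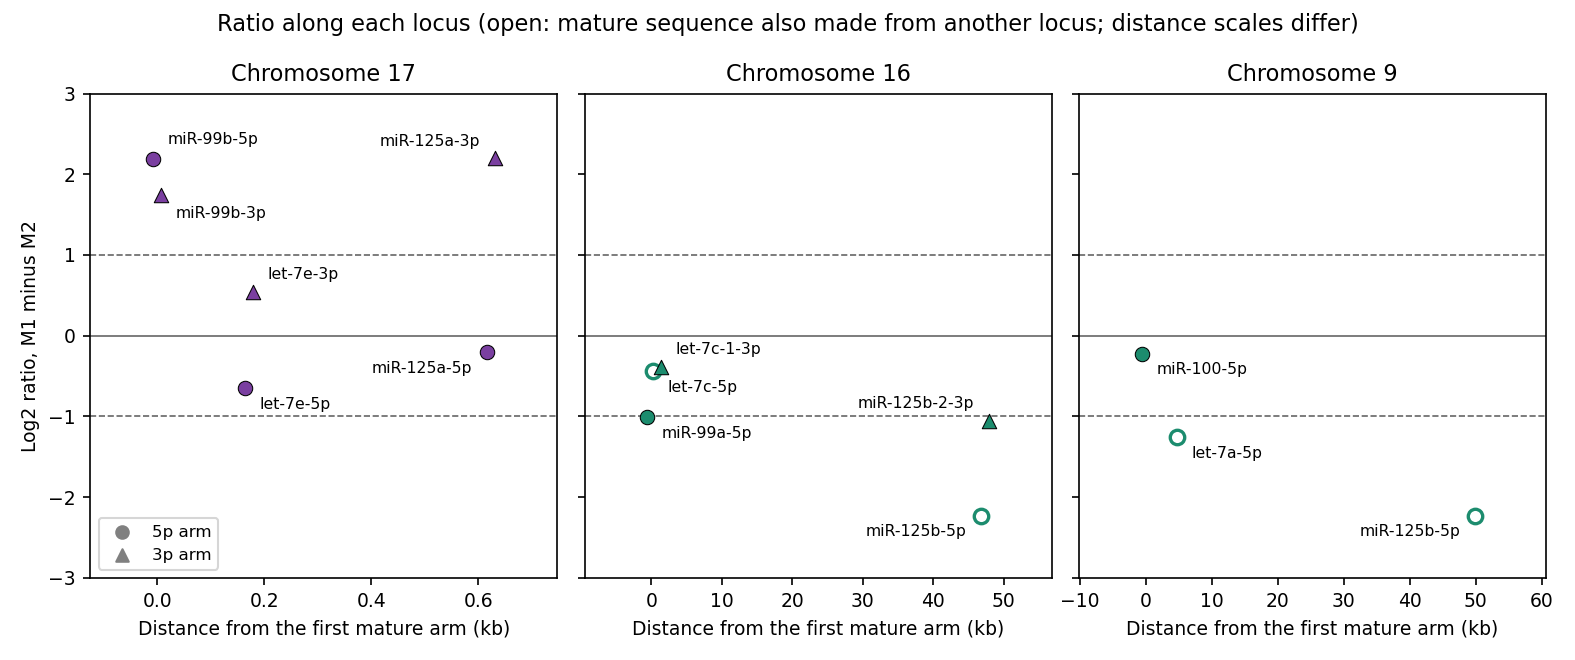
Log2 ratio, M1 minus M2 (y axis), of the compared arms against distance in kb from the start of the first mature arm of each locus (x axis, a different scale for each panel), with circles for 5p arms, triangles for 3p arms and open symbols for mature sequences also made elsewhere. The chromosome 17 arms spread from -0.65 to 2.20, and the compared arms of chromosomes 16 and 9 lie between -2.23 and -0.22.

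Of the 13 partners and relatives, 9 were compared. Among these 1 was at least 2-fold higher in the M1 library and 3 in the M2 library, with a median log2 ratio of -0.44 against 0.04 over all miRNAs compared. The 3 were let-7a-5p, miR-125b-2-3p and miR-351-5p. The 1 was miR-10b-5p, which belongs to the miR-10 family, distant relatives of miR-99/100 that lie in the Hox gene clusters. It had 11.59 in the M1 library and 9.50 in the M2 library, with a ratio of 2.09, while miR-10a-5p had 14.36 and 14.28. miR-10b-5p is also on the stromal marker list, so this is the same value as there.

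The miRNAs with values most like those of 2 members were found by the distance between their 2 log2 values, which rests on 2 libraries only. Nearest to miR-99b-5p were miR-451a, miR-486b-5p and miR-486a-5p, at distances of 0.48, 0.53 and 0.59 and with ratios of 2.72, 2.23 and 2.36. All 3 are on the erythroid marker list, where miR-486a-5p and miR-486b-5p may not be separate signals. Nearest to miR-99a-5p were miR-148a-3p, let-7j and miR-221-3p, at distances of 0.48, 0.76 and 1.07 and with ratios of -1.27, -1.76 and 0.28.

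The letters CCCU and GGAG, both reported in exosome-enriched miRNAs, were searched on the mature strand. CCCU is in miR-125a-5p and miR-125b-5p, in each at bases 2 to 5 within the seed and again at bases 10 to 13 outside it, and in 6.83% of the 293 compared miRNAs with a sequence. GGAG is in miR-125a-3p and in 11.3% of those 293. The 2 members with CCCU had log2 ratios of -0.20 and -2.23.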

How the data were processed

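Small RNA libraries were made from 500 ng of Trizol-extracted RNA with a NEBNext small RNA kit, per the labels' protocols. The submitters' processing notes name Bowtie2, bedtools and the build mm10 and give no version or role for them. The authors deposited 1 log2 value per mature miRNA and library. The read assignment, the use of strand and the normalization are not given in the sources read. Low values in each library depended on the other library, so a joint, level-dependent normalization was assumed, under which a shift common to most miRNAs would be invisible.

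Levels were obtained by undoing the log2(level + 1) scale. The worth of 1 read was taken from low values that were whole multiples of a step within 0.1 step, which held for 99.4% of 175 miRNAs in the M1 library and 97.7% of 129 in the M2 library. The steps were seen at low levels alone, and floors of 3 reads cover counting error only. The log2 ratio is the difference of the deposited values (pseudocount 1), and differences at low levels are understated. The calculation of ratios and calls was also run on simulated data. That run concerns the arithmetic alone. It cannot show how reliable the calls are, because the libraries have no replicates and their normalization is unknown.

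The design allowed for counts or CPM, and as the values are neither, the minimum of 10 was read in the authors' units. The members and lists were chosen with earlier results of these data known. The text names all members, 13 partners and relatives, the 3 miRNAs nearest to miR-99b-5p and to miR-99a-5p, and marker miRNAs. miR-6367, miR-6394, let-7d, miR-142a and miR-669a were named after their values were seen. Sequences and positions came from RefSeq (GRCm38.p6) and host genes from GENCODE M21. Alternatives changed the pseudocount, the minimum level and the scaling. The split of miRNAs by GC content was added after seeing the data. Calculations used Python 3.11.15, numpy 2.4.6 and pandas 2.3.3.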

Additional observations from a re-analysis of the deposited data

How the results depend on the processing

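No paired analysis was possible because the M1 and M2 groups hold 1 library each, which also bars leaving any out. With no replicates, a call was held to have changed when a ratio crossed 2-fold, and a value without a call when it moved by over 1.5 times. The 3 calls higher in the M1 library and that of miR-125b-5p held under each pseudocount and scaling tried, with log2 ratios of 1.82 to 2.29 for miR-99b-5p, 1.51 to 1.84 for miR-99b-3p, 2.13 to 2.54 for miR-125a-3p and -2.46 to -2.13 for miR-125b-5p. The call of miR-99a-5p, with a range of -1.11 to -0.91, did not, which left 1 member higher in the M2 library after division by the sum and after division by the sum without the members. Division by the sum moved the median ratio of all miRNAs compared to 0.13 and left 1 partner, let-7a-5p, higher in the M2 library. The miR-351-5p call was also lost, at -0.75, when its ratio was centred on the 31 miRNAs nearest in level, a setting chosen after seeing the data. With no minimum level 2 partners were higher in the M1 library and 4 in the M2 library, and 3 members were higher in each. The difference of medians between the chromosome 17 locus and the other loci ranged from 2.69 to 2.97. The low end came from summed linear levels in place of medians. Dividing a library by a sum shifts nearly all ratios alike, so those scalings could not change this difference. They moved the median ratio of all miRNAs compared from 0.04 to between -0.02 and 0.13. Shifts so small could not change the 3 calls higher in the M1 library or that of miR-125b-5p either. None of the settings undoes the unknown normalization. For miR-99a the arm difference is set by the pseudocount, at 16.28 in the M1 library with 0.5, and at 12.96 in the M1 library and 13.64 in the M2 library with 5. Without the 10 most abundant other miRNAs in the total, the shares in the M1 and M2 libraries were 16.2% and 27.5% for the miR-99/100 seed, 0.188% and 0.443% for miR-125a-5p and miR-125b-5p, 1.36% and 0.378% for the chromosome 17 members, and 15.4% and 27.7% for the other members. The number of reads limits miR-99a-3p, miR-100-3p and miR-125b-1-3p, each at 4 reads or fewer.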
